A study of Mus musculus with 6 samples.

Results

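Iron genes were followed in the bone marrow of mice that express CDX2 in blood-forming cells. They were taken from a fixed list of 10 symbols, matched to Ensembl gene IDs through the GENCODE M21 names, out of the 39179 genes in the count tables. Of these, 4 act in the transferrin cycle (*Tfrc*, *Tfr2*, *Steap3*, *Slc11a2*), a pair carry substrates into mitochondria (*Slc25a37*, *Slc25a38*), a pair encode the ferritin subunits (*Fth1*, *Ftl1*) and a pair encode the iron regulatory proteins (*Aco1*, *Ireb2*). All 10 passed the filter on low counts, among 15980 genes tested.

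RNA was sequenced from the whole bone marrow of 6 littermates, 3 *MxCDX2* mice and 3 controls. *MxCDX2* mice (*RsCDX2::Mx1Cre*) carry the human CDX2 coding sequence behind a loxP-flanked stop at *Rosa26*, together with a Cre driven by the interferon-inducible *Mx1* promoter. That promoter answers to interferon in several blood and non-blood cell types, so induction is not limited to stem cells. Each control had a genotype of its own: control 1 was an *RsCDX2* mouse, control 2 an *Mx1Cre* mouse and control 3 a wild type mouse, so no control genotype was replicated. All mice, controls included, received 3 intraperitoneal injections of pI:pC, a double-stranded RNA that induces interferon, at 10 µg/g when 3 months old, and were analyzed 6 weeks later.

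Dividing cells take up iron as transferrin bound to the transferrin receptor. In the acidified endosome the iron is reduced by STEAP3 and leaves through the transporter DMT1, which *Slc11a2* encodes. Erythroblasts send most of it on to mitochondria, where mitoferrin 1 (*Slc25a37*) brings it in for heme synthesis, while ferritin shells built of heavy and light chains store what is not used. The RNA-binding proteins IRP1 (*Aco1*) and IRP2 (*Ireb2*) bind iron-responsive elements, short hairpins in untranslated regions: in a 5′ untranslated region they block translation, and in the 3′ untranslated region of *Tfrc* they protect the transcript from decay.

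Hairpins that matched a fixed pattern are shown because such elements are the known handle of the iron regulatory proteins. They were found in GENCODE M21 transcripts as an unpaired C, 5 bases, the loop CAGTG followed by A, C or T (in capitals), and 5 bases that pair with the first 5, with at least 4 of the 6 outer bases also paired and G-T pairs allowed. On GRCm38, *Tfrc* held 4 such 29-base sites in its 3′ untranslated region, all on the plus strand and within Tfrc-201, 1 of its 3 coding transcripts:
Tfrc chr16:32631219-32631247: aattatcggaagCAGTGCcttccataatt
Tfrc chr16:32631598-32631626: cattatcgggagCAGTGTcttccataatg
Tfrc chr16:32631663-32631691: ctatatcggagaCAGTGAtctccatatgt
Tfrc chr16:32631710-32631738: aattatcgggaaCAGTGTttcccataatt
Both ferritin genes held 1 site in the 5′ untranslated region, *Fth1* on the plus strand and *Ftl1* on the minus strand:
Fth1 chr19:9982732-9982760: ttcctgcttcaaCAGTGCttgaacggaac
Ftl1 chr7:45459779-45459807: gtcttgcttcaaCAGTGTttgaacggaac

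Of 21901 coding genes searched, 18 (0.0822%) held a match in an untranslated region. Among the 9 genes known for such elements that are listed further below, 6 held one. A gene without a match may therefore still carry an element. *Slc11a2* is known to have isoforms with and without such an element. No match was found in its annotated transcripts, which says only that this pattern is not in those letters, and counts per gene do not separate its isoforms.

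Between 38646101 and 49899650 reads per mouse fell on genes. Reads that the counting gave to the mouse *Cdx2* gene, the ortholog of the human sequence in the transgene, numbered 4, 0 and 0 in controls 1 to 3 and 152, 155 and 183 in *MxCDX2* 1 to 3. The first principal component (61.0% of the variance) separated the groups, and the second (15.9%) set the wild type control 3 apart from the other mice. Marker genes of several cell types differed between the groups. Fell and rose here mean past both thresholds given below, as 9.03% and 4.59% of all tested genes were. All 12 erythroid markers fell, and the sum of the 8 that are not globins ranged from 213913 to 270308 normalized counts in controls and from 7869 to 45726 in *MxCDX2* mice. Of the erythroblastic island macrophage markers 5 of 10 fell (sums 29435 to 77225 against 19529 to 24335). Of the monocyte markers 4 of 7 rose (38790 to 61488 against 185352 to 217823). Of the neutrophil markers 4 of 9 fell (1819221 to 2982947 against 882746 to 1175463), as did 4 of 6 B cell (16903 to 42279 against 3551 to 11582) and 2 of 5 megakaryocyte markers (21819 to 258164 against 9853 to 13522, the highest value being control 3). The sums hide markers that did not follow them. Log2 fold changes were −0.31 for *Elane*, 0.31 for *Mpo* and 0.78 for *Prtn3* (neutrophil), and 0.75 for *Adgre1* (macrophage), none past the thresholds. *Prtn3* and *Adgre1* were higher in every *MxCDX2* mouse than in any control. In marrow RNA, fewer cells of a type and less RNA per cell cannot be told apart, and the part of these shifts in the results below was not tested.

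A gene passed the test when its absolute log2 fold change was above 1 and its adjusted p below 0.05 (edgeR quasi-likelihood, Benjamini-Hochberg over all genes tested). Of the 10 genes, 6 fell in *MxCDX2* marrow and 0 rose, against 9.03% of tested genes that fell and 4.59% that rose. The 10 were chosen with earlier results of these data known. The shares of all tested genes here are thus a background, and enrichment of iron genes was not tested. *Aco1* was the 1 gene higher at an unadjusted p below 0.05, a level at which the share of all tested genes was not counted. DESeq2 gave 6 and 0 as well, with 10.8% and 4.69% of its tested genes past the same thresholds. The median log2 fold change of the 10 genes was −1.54, and that of all tested genes was 0.002. By the adjusted p alone 7 of the 10 were lower (11.8% of tested genes) and 1 was higher (9.91%). In 7 of the 10 all *MxCDX2* mice lay below all controls (20.7% of tested genes) and in 1 all lay above (21.4%). The 6 that fell were the 4 transferrin cycle genes and the 2 mitochondrial carriers. Neither ferritin and neither regulatory protein passed both thresholds, and a difference between these groups of genes was not tested.

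**Figure D1:**
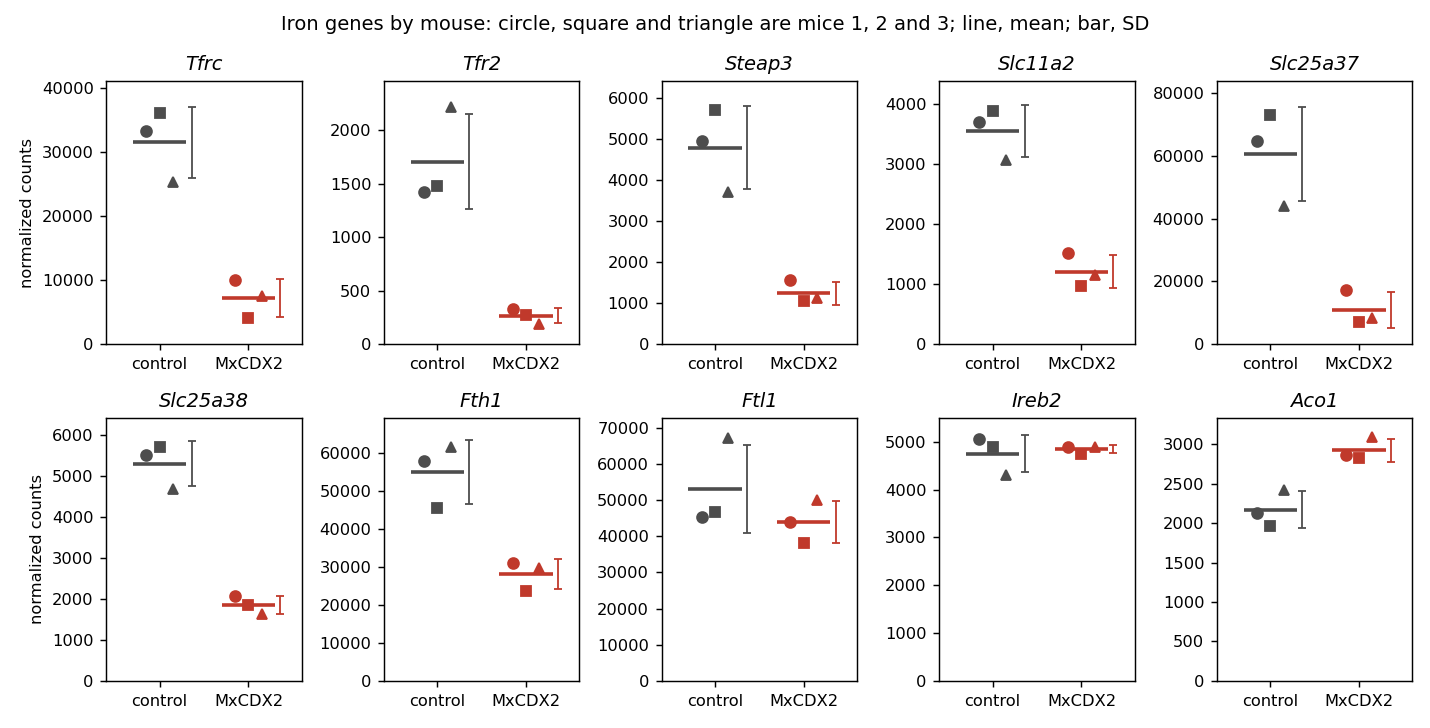
Normalized counts (TMM-scaled reads, vertical axes from 0) of the 10 iron genes in each control and *MxCDX2* mouse, with the group mean (line) and SD (bar), n = 3 per group. The 6 genes from *Tfrc* to *Slc25a38*, and *Fth1*, are lower in every *MxCDX2* mouse than in any control. *Ftl1* and *Ireb2* overlap, and *Aco1* is higher in every *MxCDX2* mouse.

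*Tfrc* (ENSMUSG00000022797, GRCm38 chr16:32608920-32632794) encodes transferrin receptor 1, the main route of iron into erythroblasts. Its normalized counts were 33271, 36127 and 25396 in controls 1 to 3 and 10027, 4101 and 7467 in *MxCDX2* 1 to 3. The groups did not overlap, and the highest *MxCDX2* mouse had less than any control. The means were 31598 ± 5558 and 7198 ± 2972 (SD, n = 3), so 22.8% of the control level was left (log2 fold change −2.13, SE 0.34, edgeR adjusted p = 0.00719).

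*Tfr2* (ENSMUSG00000029716, chr5:137569840-137587481) encodes transferrin receptor 2, which associates with the erythropoietin receptor in erythroblasts and senses transferrin saturation in the liver. It was read at 1425, 1476 and 2221 normalized counts in controls and at 331, 272 and 192 in *MxCDX2* mice. Its fold change was within the error of that of *Slc25a37*, which was the lower without control 3 or without *MxCDX2* 1, and the groups lay far apart although control 3 was above the other controls. The means were 1707 ± 446 and 265 ± 69.8 (SD, n = 3; log2 fold change −2.69, SE 0.28, edgeR adjusted p = 0.00228). *Epor*, the erythropoietin receptor gene, is in the erythroid list and fell by 3.60 on the log2 scale.

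*Steap3* (ENSMUSG00000026389, chr1:120190757-120272705), the endosomal ferrireductase, was read at 4959, 5726 and 3705 normalized counts in controls and 1567, 1048 and 1125 in *MxCDX2* mice. *Slc11a2* (ENSMUSG00000023030, chr15:100387898-100425072), which moves the reduced iron into the cytosol, was read at 3703, 3884 and 3061 against 1519, 965 and 1148. Neither gene had an *MxCDX2* mouse above a control. *Steap3* fell from 4797 ± 1020 to 1247 ± 280 (SD, n = 3; log2 fold change −1.94, SE 0.22, edgeR adjusted p = 0.00287). *Slc11a2* fell from 3549 ± 433 to 1211 ± 282 (SD, n = 3; log2 fold change −1.55, SE 0.19, edgeR adjusted p = 0.00348). An opposite-strand gene, *Gm5475*, overlaps *Slc11a2* and held 9 reads in all 6 mice.

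*Slc25a37* (ENSMUSG00000034248, chr14:69241848-69285112), mitoferrin 1, was read at 64736, 72982 and 43911 normalized counts in controls and at 17350, 6967 and 8232 in *MxCDX2* mice. It had the widest spread among *MxCDX2* mice relative to its mean of the 6 fallen genes, and every one of them lay below every control. The mean went from 60543 ± 14982 to 10850 ± 5665 (SD, n = 3), with 17.9% left (log2 fold change −2.48, SE 0.40, edgeR adjusted p = 0.00785).

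*Slc25a38* (ENSMUSG00000032519, chr9:120110374-120124504) encodes the mitochondrial glycine carrier that feeds heme synthesis, and its loss is a cause of congenital sideroblastic anemia. Normalized counts were 5505, 5692 and 4661 in controls and 2059, 1845 and 1623 in *MxCDX2* mice. Both groups were tight and did not overlap. The means were 5286 ± 549 and 1842 ± 218 (SD, n = 3; log2 fold change −1.52, SE 0.13, edgeR adjusted p = 0.00163), within the error of the change of *Slc11a2*.

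*Fth1* (ENSMUSG00000024661, chr19:9980598-9985098), the ferritin heavy chain with the ferroxidase site, was read at 57963, 45633 and 61560 normalized counts in controls and at 31090, 23652 and 29857 in *MxCDX2* mice. No *MxCDX2* mouse reached a control. The means were 55052 ± 8353 and 28200 ± 3986 (SD, n = 3). The log2 fold change was −0.97 (SE 0.19, edgeR adjusted p = 0.0138), which passed the adjusted p and fell just short of the fold limit. Without control 2 it was −1.08 (adjusted p = 0.0205) and without *MxCDX2* 1 it was −1.04 (adjusted p = 0.0356), past both thresholds. Without *MxCDX2* 3 the log2 fold change was −1.003 and the adjusted p was 0.0631, so that the adjusted p was no longer passed.

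*Ftl1* (ENSMUSG00000050708, chr7:45457944-45459884), the light chain that promotes formation of the iron core, was read at 45403, 46824 and 67243 normalized counts in controls and at 43931, 38146 and 49935 in *MxCDX2* mice. The groups overlapped. The means were 53157 ± 12220 and 44004 ± 5895 (SD, n = 3; log2 fold change −0.27, SE 0.21, edgeR adjusted p = 0.404). Together the ferritin genes held 0.209%, 0.194% and 0.285% of gene reads in controls and 0.167%, 0.145% and 0.184% in *MxCDX2* mice. Both have near-identical copies in the genome and reads that matched several places were not counted, so both levels are uncertain. The 3 copies with most reads were *Ftl1-ps1* (886 in all 6 mice), *Fth-ps2* (182) and *Ftl2-ps* (51).

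*Ireb2* (ENSMUSG00000032293, chr9:54863789-54912530), the gene of IRP2, was read at 5059, 4891 and 4308 normalized counts in controls and at 4886, 4747 and 4890 in *MxCDX2* mice. It had the fold change nearest 0 of the 10, with overlapping groups (log2 fold change 0.03, SE 0.10, edgeR adjusted p = 0.874). *Aco1* (ENSMUSG00000028405, chr4:40143081-40198338), the gene of the bifunctional cytosolic aconitase that is IRP1 without its iron-sulfur cluster, was read at 2134, 1962 and 2421 in controls and at 2858, 2821 and 3090 in *MxCDX2* mice. Every *MxCDX2* mouse lay above every control. Its means were 2172 ± 232 and 2923 ± 146 (SD, n = 3; log2 fold change 0.43, SE 0.11, edgeR adjusted p = 0.0389), past the adjusted p and under the fold limit. The adjusted p lay between 0.0831 and 0.145 in 5 of the 6 fits without 1 mouse, and at 0.0119 without control 3.

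Levels can be compared between genes only per length, here on the RPKM scale, with TMM library sizes and the length of the principal transcript. In controls the ferritins were highest (*Fth1* 1303 ± 198, *Ftl1* 1208 ± 278, SD, n = 3), and the pair did not differ beyond their spread. *Slc25a37* at 319 ± 78.9 and *Tfrc* at 142 ± 25.0 followed, then *Slc25a38* at 64.9 ± 6.74 and *Steap3* at 35.99 ± 7.66. *Ireb2* (18.1 ± 1.503) and *Slc11a2* (17.7 ± 2.16) were within their spread of each other, as were *Tfr2* (12.8 ± 3.35) and *Aco1* (12.5 ± 1.33). In *MxCDX2* mice the order was different: *Ftl1* (999.7 ± 134) stood above *Fth1* (667.6 ± 94.4), *Slc25a37* was at 57.2 ± 29.9, *Tfrc* at 32.4 ± 13.4 and *Slc25a38* at 22.6 ± 2.68. *Ireb2* (18.5 ± 0.308) and *Aco1* (16.8 ± 0.837) then lay above *Steap3* (9.35 ± 2.10), *Slc11a2* (6.03 ± 1.41) and *Tfr2* (1.99 ± 0.525).

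The ratio of 2 genes within a mouse does not depend on the scaling of its library. In all 4 ratios were tested by a two-sided exact permutation test of the mean log2 ratio, where 0.10 is the smallest p that 3 mice against 3 can give, so none can pass 0.05. How often the ratio of any 2 tested genes separates the groups was not counted. For single genes, all *MxCDX2* mice lay below all controls in 20.7% and above in 21.4% of tested genes. Reads of *Fth1* per read of *Ftl1* were 1.28, 0.975 and 0.916 in controls and 0.708, 0.620 and 0.598 in *MxCDX2* mice. The mean ratio of heavy to light chain was thus lower by 0.71 on the log2 scale, in groups that did not overlap (exact p = 0.10, adjusted over the 4 ratios p = 0.133). As both ferritin levels are uncertain because of reads that matched several places, so is this ratio. Reads of *Ireb2* per read of *Aco1* were 2.37, 2.49 and 1.78 against 1.71, 1.68 and 1.58, also without overlap and with a smaller difference of −0.40 on the log2 scale (exact p = 0.10, adjusted p = 0.133).

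Erythroblasts rely on mitoferrin 1, while mitoferrin 2 (*Slc25a28*) is made in most cells. *Slc25a28* was read at 1624 ± 228 and 1638 ± 151 normalized counts (SD, n = 3; log2 fold change 0.01, edgeR adjusted p = 0.963). Reads of *Slc25a37* per read of *Slc25a28* were 37.7, 40.8 and 32.2 in controls and 10.5, 3.91 and 5.56 in *MxCDX2* mice. That ratio was 6.00-fold lower, with separate groups (log2 difference −2.59, exact p = 0.10, adjusted p = 0.133). Reads of *Tfrc* per read of *Tfr2* were 23.4, 24.5 and 11.4 against 30.3, 15.1 and 39.0, and these groups overlapped (log2 difference 0.48, exact p = 0.40, adjusted p = 0.40).

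**Figure D2:**
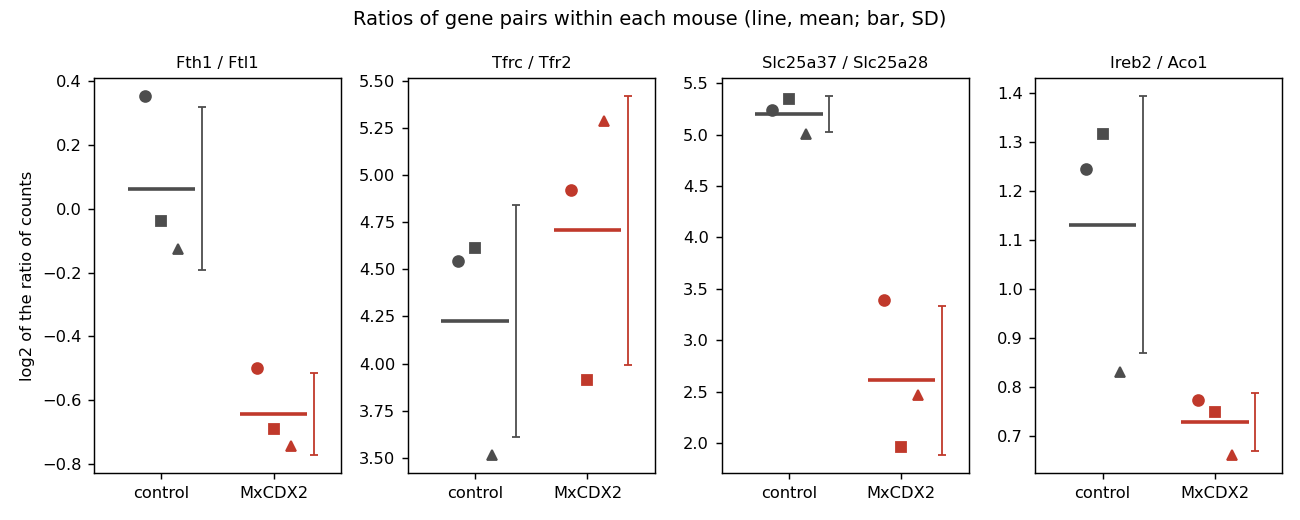
The log2 ratio of the counts of 2 genes in each mouse, by group, with the mean (line) and SD (bar), n = 3 per group; the vertical axes do not start at 0. *Fth1* to *Ftl1*, *Slc25a37* to *Slc25a28* and *Ireb2* to *Aco1* are lower in all 3 *MxCDX2* mice, and *Tfrc* to *Tfr2* overlaps. How often other gene pairs separate in this way was not counted.

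The 3 *MxCDX2* mice differed among themselves. Against the control mean, the summed erythroid markers other than globins stood at −2.46, −4.996 and −3.81 on the log2 scale in *MxCDX2* 1 to 3. *MxCDX2* 1, the mouse with most of them left, was also the highest of the 3 for each of the 6 fallen genes. On the first principal component of all tested genes, *MxCDX2* 1 also lay nearest the controls (45.3, against 84.3 and 63.2 for *MxCDX2* 2 and 3). How many of all fallen genes were highest in *MxCDX2* 1 was not counted, so this order is not shown to be particular to iron genes. *MxCDX2* 2, the mouse with least, was the lowest of the 3 for *Tfrc*, *Steap3*, *Slc11a2* and *Slc25a37*, and *MxCDX2* 3 was the lowest for *Tfr2* and *Slc25a38*. For *Tfrc* the values were −1.66, −2.95 and −2.08, and for *Slc25a37* they were −1.80, −3.12 and −2.88. The summed B cell markers stood in the same order as the erythroid ones, at −1.35, −3.05 and −1.86, and the summed monocyte markers in the opposite order, at 1.92, 2.16 and 2.04. Other orders were seen for the summed macrophage markers (−1.23, −1.17 and −0.91), neutrophil markers (−1.44, −1.05 and −1.46) and megakaryocyte markers (−2.95, −3.40 and −2.94). The group of 3 mice is too small for a correlation.

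**Figure D3:**
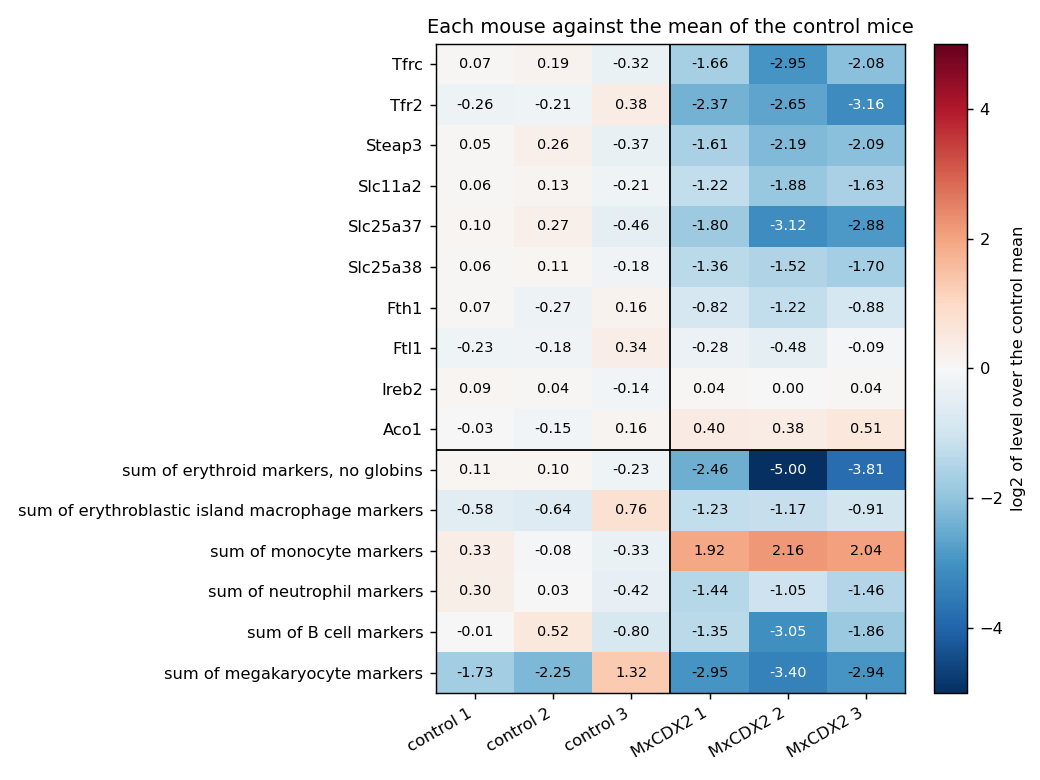
Log2 of each mouse's normalized count over the mean of the 3 controls, for the 10 iron genes and for the summed markers of 6 cell types (color and number in each cell). Erythroid markers other than globins stand at −2.46, −4.996 and −3.81 in *MxCDX2* 1 to 3, below the values of the iron genes in the same mice.

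Counts of the iron genes were set beside those of the erythroid markers other than globins, a measure chosen after the values were seen. Reads of *Tfrc* per 1000 such marker reads were 123, 134 and 119 in controls and 219, 521 and 417 in *MxCDX2* mice. The ratios for *Slc25a37* were 239.5, 271 and 205 against 379, 886 and 460, and those for *Tfr2* were 5.27, 5.48 and 10.4 against 7.23, 34.6 and 10.7. From the difference of mean logs, this ratio was higher in *MxCDX2* mice by 2.07-fold for *Tfr2*, 2.26-fold for *Slc25a37*, 2.90-fold for *Tfrc*, 3.49-fold for *Steap3*, 4.52-fold for *Slc11a2* and 4.67-fold for *Slc25a38*. It was higher by 6.88-fold for *Fth1* and 18.1-fold for *Aco1*. It was higher in all 3 *MxCDX2* mice than in all 3 controls for 9 of the 10 genes, while for *Tfr2* control 3 (10.4) lay above *MxCDX2* 1 (7.23). The same held for 92.0% of all tested genes, so the count of 9 says nothing particular about iron genes. It records only that the erythroid markers fell further, on average, than each of these 10 genes.

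The other genes of iron handling were taken from a list of 49, of which 43 passed the filter. Of these 12 fell and 0 rose, against 9.03% and 4.59% of all tested genes. This list, too, was chosen with earlier results of these data known. The same shares stand behind the counts of the sub-lists that follow. At an unadjusted p below 0.05, 2 were higher (*Pcbp2* and *Hmox2*, the latter named after its values were seen). The share of all tested genes at that level was not counted. DESeq2 called 13 lower and 0 higher. The median log2 fold change was −0.78.

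Of 18 genes for mitochondrial iron, iron-sulfur clusters and heme transport, 6 fell and 12 were lower by the adjusted p alone (11.8% of all tested genes). The lowest was *Isca1*, a scaffold of late iron-sulfur cluster assembly, with 8474 ± 294 normalized counts in controls and 1505 ± 454 in *MxCDX2* mice (SD, n = 3; log2 fold change −2.49, SE 0.22, edgeR adjusted p = 0.00163). *Abcb10*, a mitochondrial inner membrane transporter that binds mitoferrin 1, had a log2 fold change of −2.24 (adjusted p = 0.00318), and *Abcg2*, an exporter of porphyrins, one of −2.11 (adjusted p = 0.00212). *Glrx5*, the glutaredoxin that hands on iron-sulfur clusters, stood at −1.90 (adjusted p = 0.00159).

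Of 9 tested genes for export, systemic control and heme scavenging, 2 fell. *Slc40a1*, which encodes the iron exporter ferroportin of macrophages and erythroid cells, was read at 14308, 15067 and 22028 normalized counts in controls and at 3131, 3688 and 3435 in *MxCDX2* mice (log2 fold change −2.33, SE 0.19, edgeR adjusted p = 0.00156). *Bmp6*, the ligand that induces hepcidin in the liver, stood at −1.92 (adjusted p = 0.0200) and its adjusted p rose to between 0.0599 and 0.0773 without any 1 of the *MxCDX2* mice.

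Among 6 tested genes of cytosolic handling 2 fell. *Ncoa4*, the receptor that delivers ferritin to lysosomes, had a log2 fold change of −1.11 (adjusted p = 0.00240), which was −0.98 and short of the fold limit when libraries were scaled by plain totals. *Hmox1*, heme oxygenase 1, was read at 12066, 10062 and 26103 normalized counts in controls and at 7304, 3554 and 5992 in *MxCDX2* mice (log2 fold change −1.52, adjusted p = 0.0465), and control 3 was far above the rest. Without control 3 the *Hmox1* change was −0.96 (adjusted p = 0.0560). The summed macrophage markers were also highest in control 3, at 77225 normalized counts. So were the summed megakaryocyte markers, at 258164, and a link of either sum to *Hmox1* was not tested. *Pcbp2*, an iron chaperone, was at 0.58 (adjusted p = 0.0106, under the fold limit), its relative *Pcbp1* at 0.14 (adjusted p = 0.434) and *Fbxl5*, the ligase subunit that removes IRP2, at −0.37 (adjusted p = 0.249). Of 10 tested genes for uptake, 2 fell: *Slc39a8* at −1.41 and *Lcn2*, lipocalin 2 of neutrophil granules, at −1.77, both named after their values were seen.

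**Figure D4:**
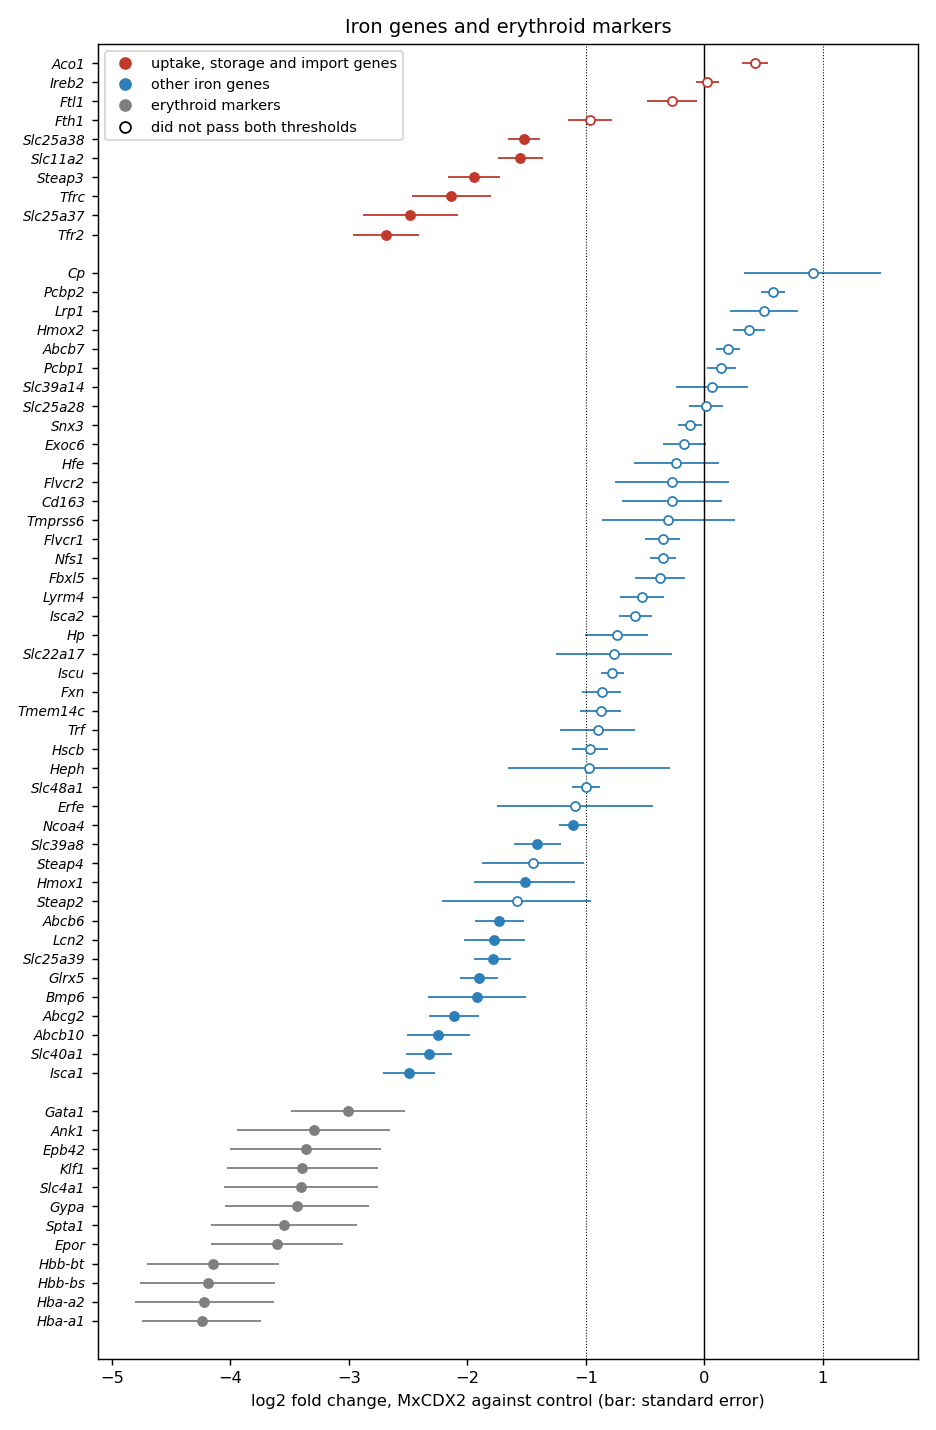
Log2 fold change of *MxCDX2* against control with its standard error (bar) for the 10 iron genes, the 43 tested other iron genes and the 12 erythroid markers; filled points passed both thresholds and dotted lines mark the fold limit of 1. The 12 erythroid markers lie between −4.24 and −3.01, below every iron gene of the 2 upper blocks.

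The 9 genes known for iron-responsive elements were taken as 1 list, whichever side of the transcript the element lies on. Of these 4 fell, *Tfrc*, *Slc11a2*, *Slc40a1* and *Alas2*, against 9.03% of all tested genes. *Alas2*, the erythroid first enzyme of heme synthesis, had the lowest log2 fold change, −3.96 (SE 0.49, edgeR adjusted p = 0.00343). By the adjusted p alone *Fth1* passed as well, and *Ftl1*, *Cdc14a* (−0.21, adjusted p = 0.279) and *Epas1* (−0.95, adjusted p = 0.137) did not pass. Single 5′ sites were also found in *Slc40a1* (minus strand) and in *Alas2*, where the site spans a splice junction. The *Slc40a1* site lies in 1 of its 4 coding transcripts and the *Alas2* site in 1 of 2, which counts per gene do not separate. Both are shown as genes of the list that fell, and a link of the hairpin to the fall was not tested:
Slc40a1 chr1:45925465-45925493: caacttcagctaCAGTGTtagctaagttt
Alas2: ttggttcgtcctCAGTGCagggcaacagg
Genes with a 5′ hairpin thus included *Alas2*, with the lowest value of the list, and *Ftl1*, which did not pass. RNA counts do not measure translation, which is what a 5′ element controls.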

How the data were processed

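Bone marrow RNA of 6 mice was sequenced from poly(A)-selected stranded libraries (TruSeq). The authors aligned reads with STAR 2.5 to GRCm38, demultiplexed with bcl2fastq 2.17.1.14, and deposited raw counts per Ensembl gene from HTSeq 0.6.1. Its strand setting is not given in the sources used here. Reads that matched several places were not counted, and between 12.2% and 17.1% of reads fell on no gene or on several. Each mouse had 38646101 to 49899650 reads on genes.

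From these counts, edgeR 4.0.16 (R 4.3.3; TMM, filterByExpr, quasi-likelihood test) compared 3 *MxCDX2* with 3 control mice over 15980 genes, with no covariate. A call needed an absolute log2 fold change above 1 and a Benjamini-Hochberg adjusted p below 0.05. Normalized counts are counts scaled by TMM library size. The test was tested on simulated data in which equal numbers of genes were raised and lowered. The simulation did not copy the uneven change or the shifts in cell type markers of these data. It therefore does not show how the test performs under them. Ratios used scipy 1.17.1. DESeq2 1.42.0 and the changes of scaling, filter and mice in the closing section were the alternatives. Hairpins came from GENCODE M21 transcripts and promoters from RefSeq.

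The members and gene lists were chosen with earlier results of these data known. Named genes are the 10 genes, the 9 of the iron-responsive element list and, of the other iron genes, the 6 lowest and 6 highest past both thresholds plus 8 fixed names; 1 listed gene is not reported here. The labels name 6 separate mice, and no files of 2 mice of a group agreed within sampling noise.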

Additional observations from a re-analysis of the deposited data

How the results depend on the processing

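The count of fallen genes among the 10 was 6 under each change of tool (DESeq2), scaling (its size factors, or the plain totals), filter (any gene with at least 1 count) or gene set (without the 10 most abundant genes), and 6 to 7 when 1 mouse was left out, the 7 being without control 2 or without *MxCDX2* 1, where *Fth1* passed. The count of risen genes was 0 throughout. Among other iron genes 10 to 13 fell, and 0 rose except 1 without control 3 (*Cp*, ceruloplasmin, log2 fold change 1.72, adjusted p = 0.0444). Of 110 values of the 10 genes under alternatives, 107 kept their direction and their call by both thresholds together, and 2 (*Fth1*) gained the call. The 1 that changed sign was *Ireb2*, at −0.0216 without control 3. Its highest value was 0.0875 among fits without 1 mouse (control 1 left out) and 0.147 with plain totals. The log2 ratio difference ranged without 1 mouse from −0.80 to −0.56 for *Fth1* to *Ftl1*, from 0.127 to 0.879 for *Tfrc* to *Tfr2*, from −2.98 to −2.26 for *Slc25a37* to *Slc25a28* and from −0.55 to −0.31 for *Ireb2* to *Aco1*. Scaling by plain totals moved the median of all genes to 0.118. By the adjusted p alone, *Aco1* was lost in 5 of 6 fits without 1 mouse (adjusted p = 0.0831 to 0.145) and *Fth1* without *MxCDX2* 3 (adjusted p = 0.0631). *Ncoa4* lost its call with plain totals (log2 fold change −0.98). *Hmox1* passed in 1 of 6 fits without 1 mouse and had an adjusted p of 0.0556 with plain totals. Each cause was not tested. No paired analysis was possible because the control labels carry no replicate number of their own, and the numbers of the controls follow accession order. Depth allowed all 10 genes to be counted in every mouse, and 3 mice per group limit the ratios.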

Other observations

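Of the other iron genes 6 did not pass the filter on low counts. *Ftmt*, mitochondrial ferritin, had 0 reads in all 6 mice. *Hamp*, which encodes hepcidin, had 1.74 to 8.82 normalized counts per mouse, and *Steap1*, *Cybrd1*, *Hjv* and *Hpx* were the others. The 3 hepatocyte markers together had 0 to 22.8 normalized counts per mouse.

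*Slc48a1*, which moves heme out of lysosomes, fell just short of the fold limit, with 9995 ± 838 normalized counts in controls and 5005 ± 524 in *MxCDX2* mice (SD, n = 3; log2 fold change −0.998, edgeR adjusted p = 0.00329).

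Promoters of 8 of the 10 iron genes were found in RefSeq (GRCm38.p6, 250 bases before to 50 after the start). On either strand AGATAA or TGATAA, letters that GATA factors bind, were in 1 of the 8 (*Steap3*) and in 19.0% of 27025 promoters. CCACACCC, letters that Krüppel-like factors bind, was in 1 of the 8 (*Tfr2*) and in 3.57%. Nothing follows about the factors from a window of this length.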
